A study of Mus musculus with 10 samples.

Results

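The interleukin 6 family receptors and the JAK-STAT3 pathway behind them were followed in the brain RNA of *Slc20a2*-HO mice given FTY720 or placebo. The set held 10 of the 54532 genes in the count table, found by their symbols. They were the receptor chains *Osmr*, *Il6st*, *Lifr*, *Il6ra* and *Cntfr*, the ligand *Cntf*, the kinases *Jak1* and *Jak2*, the transcription factor *Stat3* and the feedback inhibitor *Socs3*. Of these, 9 were among the 17665 genes with enough counts to be tested, and *Cntf* was not. The set was drawn up with earlier results of these mice known, among them the difference of *Osmr* between the groups, so the members were selected on measured values of FTY720 against placebo, and those values are given as a description, with no test.

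Ligands of this family bind receptors that share the signalling chain gp130, the product of *Il6st*. Interleukin 6 first binds the chain encoded by *Il6ra*, CNTF binds the chain encoded by *Cntfr* and then the pair of gp130 and the LIF receptor, and oncostatin M binds gp130 with the chain encoded by *Osmr*. JAK kinases bound to these chains phosphorylate STAT3, which enters the nucleus and turns on target genes. SOCS3, itself the product of a STAT3 target gene, binds gp130 and the JAKs and shuts the signal down. In brain the pathway is best known in astrocytes, where it drives the reactive state, and in endothelial cells, which respond to interleukin 6 and oncostatin M.

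RNA-seq was run on 10 brains, 6 from mice treated with FTY720 and 4 from mice given placebo, to learn which genes FTY720 alters in this model. All 10 mice were homozygous for a knockout allele of *Slc20a2*, a gene for a phosphate transporter whose loss leads to brain calcification, so both groups shared the genotype and no wild-type brain was part of the comparison. FTY720 (fingolimod), a sphingosine analogue that holds lymphocytes in lymph nodes, was injected into the peritoneum at 0.5 mg/kg in DMSO, 3 times a week for 12 weeks from the age of 1.5 months, and placebo mice received DMSO alone. After perfusion, part of each brain went for RNA, a mixture of many kinds of cell, in which fewer cells of a type and less RNA per cell cannot be told apart.

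The libraries fell into 2 kinds that treatment did not define. Mouse names held a digit, 1 or 3, whose meaning the sources used here do not give. The cerebellar granule cell gene *Gabra6* had 0.06 to 0.24 CPM (counts scaled to a common library size) in each of the 4 digit 1 brains, whereas the 6 digit 3 brains held 130 to 172 CPM. The digit 1 group held 3 FTY720 mice and 1 placebo mouse, and the digit 3 group held 3 of each, so the treatments were compared over all mice and within each digit. Total counts were between 14772745 and 18303981 per mouse. The targeted gene *Slc20a2* still gave 89 to 294 counts per mouse, which without a wild-type brain checks no label.

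*Osmr*, the receptor chain for oncostatin M, was higher in every FTY720 mouse than in any placebo mouse. Among FTY720 mice it stood at 9.22 CPM in F1-622, 6.43 in F1-624, 8.09 in F1-918, 7.51 in F3-609, 5.58 in F3-612 and 6.04 in F3-908. Among placebo mice it stood at 4.06 CPM in P1-623, 4.57 in P3-612, 4.45 in P3-904 and 3.85 in P3-907. FTY720 mice averaged 7.14 ± 1.38 CPM (SD, n = 6), placebo mice averaged 4.23 ± 0.34 CPM (SD, n = 4), and the log2 fold change was 0.75 (SE 0.18). The lowest FTY720 mouse, F3-612, was still above the highest placebo mouse, P3-612. Groups without overlap in either direction were seen for 0.804% of all genes tested, and *Osmr*, for which this was known when the set was drawn up, was the one fitted member among them. Of all genes tested, 2.61% passed an unadjusted p of 0.05 and none passed after Benjamini-Hochberg adjustment in edgeR or DESeq2.

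The *Osmr* difference was present within each digit. Digit 3 mice alone gave 5.58 to 7.51 CPM with FTY720 against 3.85 to 4.57 CPM with placebo, a log2 fold change of 0.58 (SE 0.20). In digit 1 mice, the 3 FTY720 mice were between 6.43 and 9.22 CPM and the lone placebo mouse was at 4.06, a log2 fold change of 0.96 (SE 0.35). With the digit as a covariate the log2 fold change was 0.69 (SE 0.17). The difference between the digits, digit 3 minus digit 1, was -0.39 on the log2 scale (SE 0.36), given with no test since the within-digit values were part of how the members were chosen, and it rests on the single placebo mouse of digit 1. *Osmr* is a low gene, and its values rested on 62 to 135 counts per mouse.

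**Figure D1:**
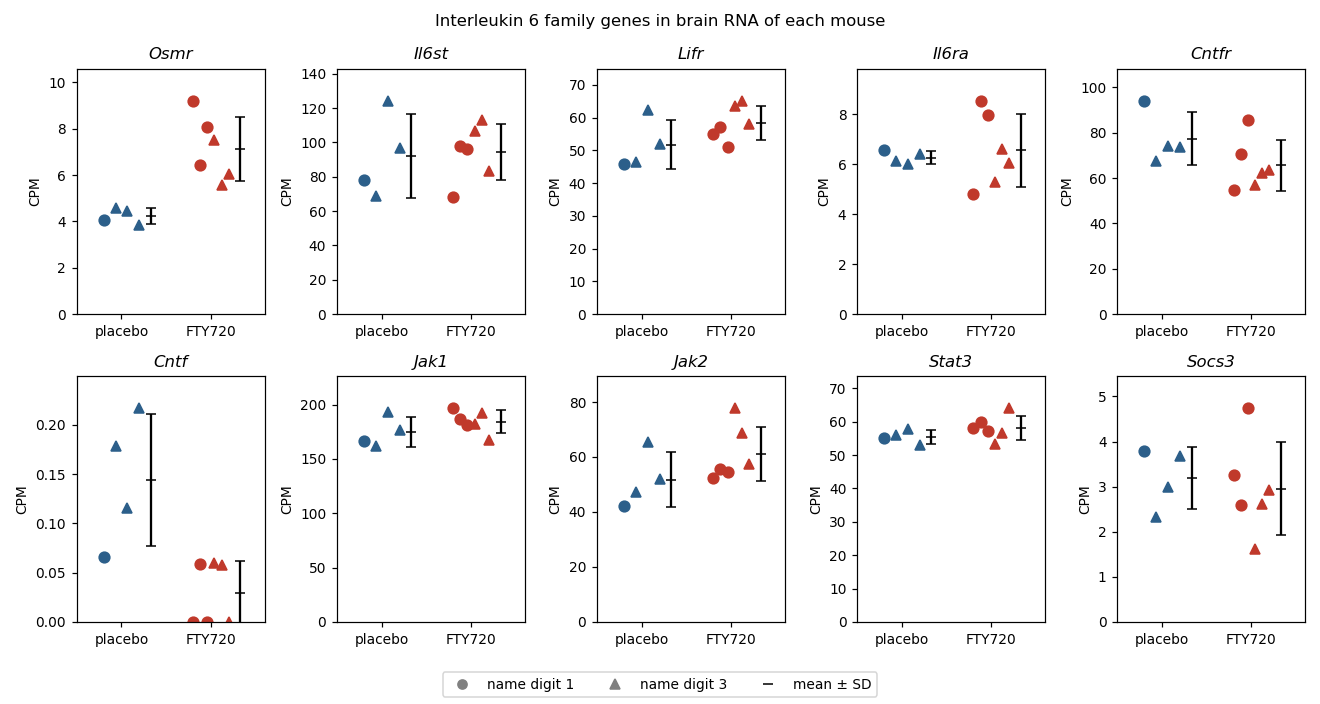
CPM of each of the 10 genes (vertical axis, from 0) in the 4 placebo and 6 FTY720 mice, with circles for name digit 1, triangles for name digit 3 and bars for mean ± SD. *Osmr* is the one panel of well-counted genes in which no placebo mouse reaches the lowest FTY720 mouse.

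*Il6st*, whose product gp130 is the chain that all these receptors share, did not move with *Osmr*. Placebo mice spanned a wide range, with 78.2 CPM in P1-623, 68.6 in P3-612, 124 in P3-904 and 96.9 in P3-907. FTY720 mice lay within it or just under it, with a lowest value of 68.4, a median of 97.2 and a highest value of 113 CPM. Its log2 fold change was 0.04 (SE 0.18).

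*Lifr*, the LIF receptor chain that pairs with gp130 for LIF and CNTF, had a lowest value of 51.1, a median of 57.6 and a highest value of 65.2 CPM with FTY720. Placebo mice had 46.0 CPM in P1-623, 46.6 in P3-612, 62.2 in P3-904 and 51.9 in P3-907. With a log2 fold change of 0.18 (SE 0.12), or 0.28 without P3-904, the groups overlapped, and 2 of the 4 placebo mice lay within the FTY720 range. *Lifr* and *Osmr* are neighbours, with no protein-coding gene between them in the deposited coordinates (GRCm38). *Osmr* lies on chromosome 15 from 6813577 to 6874969 on the minus strand, and *Lifr* from 7090614 to 7197489 on the plus strand, 215644 bases further, with 1 non-coding gene listed in the gap.

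*Il6ra*, the chain that binds interleukin 6 itself, was nearly equal in the groups. Its placebo values were close together, 6.55 CPM in P1-623, 6.12 in P3-612, 6.01 in P3-904 and 6.39 in P3-907. FTY720 mice lay on both sides of them, from 4.82 through a median of 6.33 to 8.55 CPM. Its log2 fold change was 0.07 (SE 0.18) over all mice and -0.04 (SE 0.17) in digit 3 mice alone.

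*Cntfr*, the chain that binds CNTF, was the receptor that leaned the other way. Placebo mice had 94.2 CPM in P1-623, 67.4 in P3-612, 74.4 in P3-904 and 73.9 in P3-907. FTY720 mice ran from 54.7 through a median of 62.9 to 85.6 CPM, and F1-624 and F1-918 lay within the placebo range. Over all mice this was a log2 fold change of -0.24 (SE 0.14). It was -0.13 (SE 0.14) without P1-623, the highest mouse, and -0.06 (SE 0.11) with GC and gene length trends taken out, but -0.30 (SE 0.12) with the digit as a covariate. In digit 1 mice alone it was -0.42 (SE 0.25), where the 3 FTY720 mice (54.7 to 85.6 CPM) were below the 1 placebo mouse. Within digit 3 the groups did not overlap, with 56.9 to 63.5 CPM for FTY720 against 67.4 to 74.4 CPM for placebo and a log2 fold change of -0.23 (SE 0.10). Groups without overlap among the digit 3 mice, 3 against 3, were seen for 12.9% of all genes tested.

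*Cntf*, the one ligand among the members, was almost without reads. It had 3 counts in all over the 6 FTY720 mice, 3 of which were at 0, and 10 counts over the 4 placebo mice, none at 0, with at most 4 counts in any mouse. On the CPM scale the groups did not overlap (0 to 0.060 with FTY720 and 0.066 to 0.217 with placebo). In counts they met at 1, in 3 FTY720 mice and in P1-623, and a count of 0 allows up to 3 counts in that mouse, so no size was read from this. The gene lies wholly within the span of *Zfp91* on the same strand, where 1877 to 3308 counts were assigned to *Zfp91*, and its own reads are uncertain for that reason.

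*Jak1* and *Stat3* had the smallest standard errors of the fitted members. *Jak1*, which starts the signal from gp130, was at 167 to 197 CPM with FTY720 (median 184) and at 167, 162, 194 and 177 CPM in P1-623, P3-612, P3-904 and P3-907. Its log2 fold change was 0.08 (SE 0.09). *Stat3* was at 53.4 to 64.0 CPM with FTY720 (median 57.6) and at 55.0, 56.1, 57.8 and 52.9 CPM in the same 4 placebo mice. Its log2 fold change was 0.07 (SE 0.09), with every placebo mouse but P3-907 inside the FTY720 range. These counts measure the messenger RNA and say nothing of phosphorylated STAT3, the form that signals.

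*Jak2*, the second kinase of these receptors, had a lowest value of 52.5, a median of 56.6 and a highest value of 77.7 CPM with FTY720. Placebo mice had 42.3 CPM in P1-623, 47.4 in P3-612, 65.4 in P3-904 and 52.0 in P3-907, so that 3 of the 4 lay below every FTY720 mouse and P3-904 did not. This gave a log2 fold change of 0.24 (SE 0.15), and 0.32 (SE 0.11) with the digit as a covariate. It was 0.16 without F3-609 or without P1-623, and 0.37 without P3-904.

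*Socs3*, the feedback inhibitor, ran from 1.61 through a median of 2.77 to 4.74 CPM with FTY720. Placebo mice had 3.80 CPM in P1-623, 2.32 in P3-612, 3.0 in P3-904 and 3.68 in P3-907, all within the FTY720 range. The log2 fold change was -0.11 (SE 0.27). It rested on 27 to 79 counts per mouse and had the largest standard error of the fitted members.

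Over the 9 fitted members, 7 log2 fold changes were above 0 and 2 below, with a median of 0.07 beside a median of -0.00 over all genes tested. Single mice decided the sign for *Il6st*, *Il6ra* and *Socs3*, whose log2 fold changes ran from -0.08 to 0.22, from -0.02 to 0.15 and from -0.30 to 0.01 when 1 mouse was left out. Only for *Osmr*, *Jak2*, *Lifr* and *Cntfr* did the log2 fold change over all mice exceed 1 standard error.

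**Figure D2:**
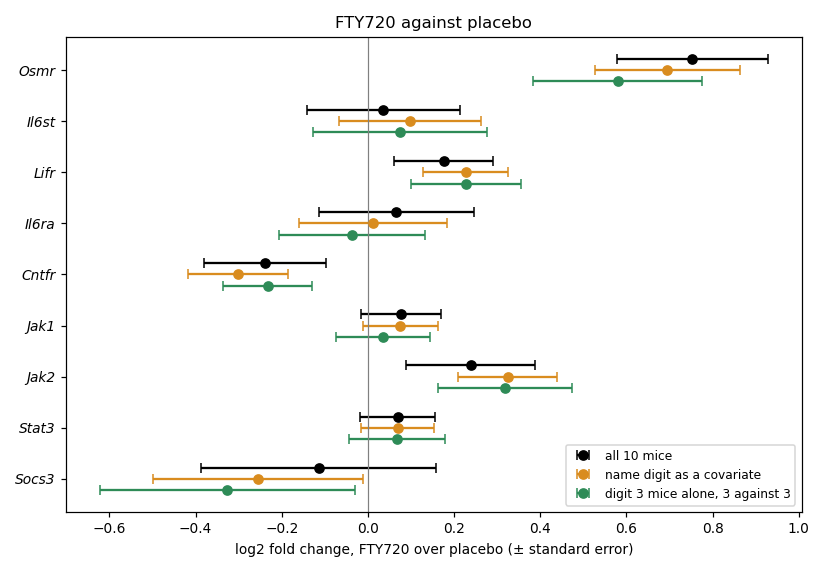
Log2 fold change of FTY720 over placebo (horizontal axis) with its standard error for the 9 fitted members, over all 10 mice, with the name digit as a covariate, and in the digit 3 mice alone. *Osmr* lies at 0.75, 0.69 and 0.58, and *Cntfr* and *Socs3* lie below 0 in all 3 fits.

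Most markers of brain endothelial cells had higher values with FTY720, as *Osmr* did. The summed level of 9 endothelial markers was 179 to 297 CPM with FTY720 and 162 to 190 CPM with placebo, and 8 of the 9 genes were higher with FTY720, with a median log2 fold change of 0.37. The sums overlapped over all mice. In digit 3 mice they did not, with 225 to 297 CPM for FTY720 and 182 to 190 CPM for placebo, where 12.9% of single genes do not overlap. The 3 of 9 with an unadjusted p under 0.05 in edgeR, named after their values were seen, were *Pecam1*, *Slco1a4* and *Ly6c1*, beside 2.61% of all genes. The other 6 did not pass, and none of the 9 passed after adjustment (adjusted p = 0.9999 for each of the 3, edgeR). No endothelial marker was absent from the whole set of mice, and zeros in single mice were not counted.

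*Osmr* was 2.15 to 4.70% of that sum with FTY720 and 2.12 to 2.51% with placebo. In digit 3 mice the shares overlapped, at 2.15 to 2.68% with FTY720 and 2.12 to 2.45% with placebo. In digit 1 mice they did not, at 3.58 to 4.70% in the 3 FTY720 mice against 2.51% in the placebo mouse. The part of endothelial content in the *Osmr* difference was not tested beyond these values.

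**Figure D3:**
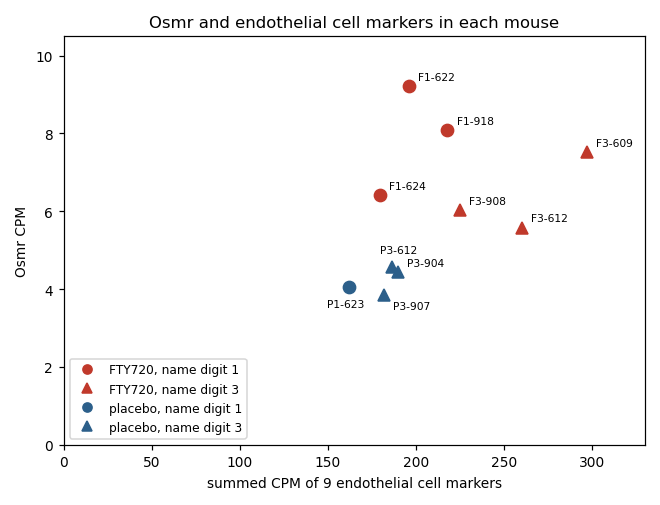
*Osmr* CPM (vertical axis) against the summed CPM of 9 endothelial markers (horizontal axis), each point a mouse. The FTY720 mice of digit 3 lie to the right of all placebo mice, and the FTY720 mice of digit 1 lie above them at sums of 179 to 218 CPM.

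The oligodendrocyte list had lower values, with sums of 5649 to 6560 CPM with FTY720 and 6438 to 7485 CPM with placebo. None of its 8 genes was higher with FTY720. *Mbp*, *Mag* and *Cnp*, named after their values were seen, were lower at an unadjusted p under 0.05 (adjusted p = 0.9999 for each, edgeR), again beside 2.61% of all genes. Over all mice none of the 7 cerebellum genes was higher either, with a median log2 fold change of -0.47 against -0.24 for the oligodendrocyte list. Digit 1 mice were 3 of 6 with FTY720 and 1 of 4 with placebo, and the part of this imbalance in either list was not tested. In digit 3 mice the oligodendrocyte sums did not overlap, with 5676 to 5822 CPM for FTY720 and 6548 to 7485 CPM for placebo. Neither did the cerebellum sums there, higher with FTY720 at 1355 to 1392 against 1310 to 1314 CPM. Among single genes tested, 12.9% did not overlap in these mice. Among the remaining markers *Rgs5* (mural cell, log2 fold change 0.54, SE 0.14) and *Slc6a13* (vascular fibroblast, -0.35, SE 0.16), also named after their values were seen, had an unadjusted p under 0.05 (0.0019 and 0.048, adjusted p = 0.9999, edgeR). Their lists did not go with them, since 4 of 8 mural cell markers tested were higher with FTY720 (median log2 fold change 0.01) and 4 of 6 vascular fibroblast markers were (median 0.06). Of the other lists, mural cell sums were 167 to 207 CPM with FTY720 and 160 to 192 CPM with placebo, and astrocyte sums 4210 to 5083 and 4205 to 4990 CPM. Microglia sums were 284 to 564 and 337 to 500 CPM, and T cell sums 6.78 to 9.57 and 6.83 to 11 CPM. All 11 lists, which also covered vascular fibroblast, neuron, cerebellum, choroid plexus and blood, overlapped between the groups over all mice.

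Compared per gene length in the deposited FPKM, the members covered a wide range of levels. *Cntfr* (25 ± 4.32 FPKM, SD, n = 10) and *Jak1* (24.7 ± 1.76) were highest and did not differ beyond their spread, with *Cntfr* above *Jak1* in 4 of 10 mice. *Jak2* followed at 11.3 ± 2.13 and *Il6st* at 8.33 ± 1.69 FPKM, and although their ranges overlapped across mice, *Jak2* was above *Il6st* in all 10. *Stat3* at 5.93 ± 0.33 and *Lifr* at 5.11 ± 0.65 FPKM were neighbours, *Stat3* being above in 8 of 10 mice.

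A gap without overlap set these apart from the low members. *Socs3* was at 1.05 ± 0.30, *Il6ra* at 0.74 ± 0.13 and *Osmr* at 0.49 ± 0.15 FPKM, each above the next in 8 of 10 mice with overlapping ranges. *Cntf* was last at 0.07 FPKM. Even at its highest, *Osmr* was well below its signalling partner. The *Il6st* to *Osmr* ratio of FPKM was between 8.10 and 30.5 over the mice, and that of *Lifr* to *Osmr* between 6.69 and 15.7.

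**Figure D4:**
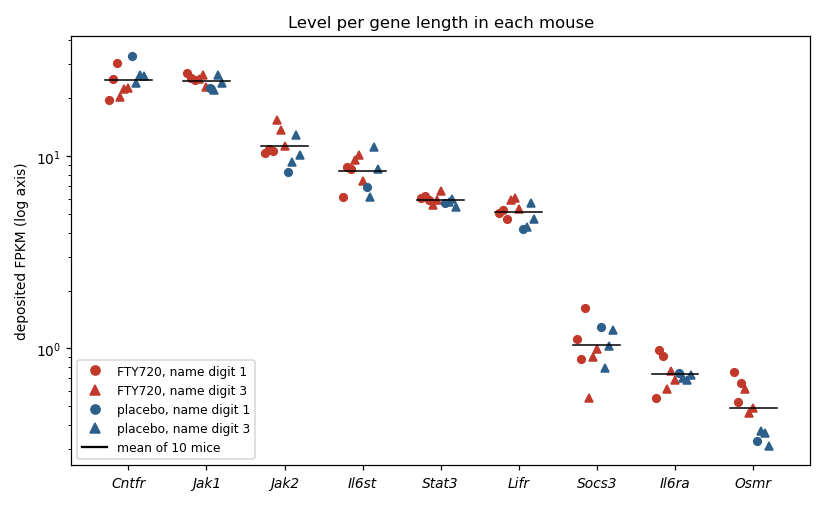
Deposited FPKM (log axis) of the 9 fitted members in each mouse, ordered by mean, with a line at the mean of all 10 mice, colours for treatment and shapes for name digit. The gap between *Lifr* and *Socs3* separates 6 higher from 3 lower genes, and *Osmr* is lowest, with its placebo mice at the bottom.

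The digit contrast was not used to choose the members and was tested, with treatment as a covariate. *Jak2* alone passed, against 28.4% of all genes tested that passed an adjusted p of 0.05. It had 42.3, 52.5, 54.4 and 55.6 CPM in the 4 digit 1 mice and a lowest value of 47.4, a median of 61.5 and a highest value of 77.7 CPM in the 6 digit 3 mice, so the groups overlapped. The log2 fold change was 0.34 (SE 0.11, adjusted p = 0.040, edgeR quasi-likelihood test), digit 3 over digit 1. The call was lost without any of 7 of the 10 mice in turn (F1-622, F1-624, F1-918, F3-609, F3-612, P1-623 or P3-907, adjusted p of 0.057 to 0.15), and the log2 fold change fell to 0.12 (adjusted p = 0.32, edgeR) once GC and gene length trends were taken out.

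The remaining members did not pass. *Socs3* had 2.59 to 4.74 CPM in digit 1 and 1.61 to 3.68 in digit 3 mice, a log2 fold change of -0.49 (SE 0.24, adjusted p = 0.15, edgeR). *Cntfr* had 54.7 to 94.2 CPM in digit 1 and 56.9 to 74.4 in digit 3 mice, a log2 fold change of -0.27 (SE 0.12, adjusted p = 0.095, edgeR), and it passed without F1-622 (-0.37, adjusted p = 0.012, edgeR). *Lifr* (0.20, SE 0.10), *Il6st* (0.24, SE 0.16), *Il6ra* (-0.20, SE 0.17) and *Osmr* (-0.19, SE 0.16) had adjusted p-values between 0.13 and 0.40 in edgeR. *Jak1* (-0.01, SE 0.09) and *Stat3* (0.00, SE 0.08) were level between the digits, and their standard errors were the smallest of the members.

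**Figure D5:**
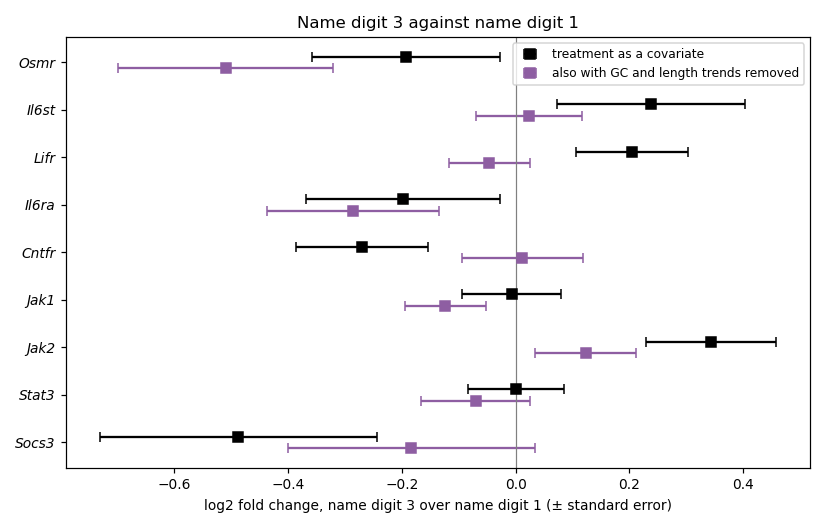
Log2 fold change of name digit 3 over name digit 1 (horizontal axis) with its standard error for the 9 fitted members, with treatment as a covariate and after GC and gene length trends were also taken out. *Jak2* moves from 0.34 to 0.12 and *Cntfr* from -0.27 to 0.01, while *Osmr* moves from -0.19 to -0.51. *Il6st* moves from 0.24 to 0.02, and *Lifr* changes sign, from 0.20 to -0.05.

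Mouse numbers began with 6 or 9, which gave another contrast the choice of members had not used. With treatment and digit as covariates, none of the 9 members passed an adjusted p of 0.05 in edgeR or DESeq2, beside 0.034% of all genes tested that did in edgeR, and 1 passed an unadjusted p of 0.05, as did 1.62% of all genes tested. That one was *Socs3*, with 1.61 to 3.80 CPM in the 6 mice numbered from 6 and 2.93 to 4.74 CPM in the 4 numbered from 9. Its log2 fold change was 0.54 (SE 0.20, unadjusted p = 0.020, adjusted p = 0.9999, edgeR), higher with 9. For *Osmr* this difference was -0.00 (SE 0.17).

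The wider pathway was read from 5 lists of 69 genes, of which 58 had enough counts. Of these 58, 2 passed an unadjusted p of 0.05 for FTY720 against placebo, beside 2.61% of all genes, and 0 passed after adjustment in edgeR. With DESeq2 these counts were 3 and 0. There were 36 log2 fold changes above 0 and 22 below, with a median of 0.03. Those with enough counts were 5 of 11 ligands, 1 of 4 other receptor chains, 7 of 8 other JAKs and STATs and all 19 feedback and adaptor genes. None of these passed in edgeR. Both that did were in the list of 27 STAT3 target genes.

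*Serpina3n*, an acute-phase protease inhibitor made by reactive astrocytes, ran from 34.6 through a median of 43.7 to 107 CPM with FTY720. Placebo mice had 41.0 CPM in P1-623, 33 in P3-612, 21 in P3-904 and 29.1 in P3-907. The log2 fold change was 0.84 (SE 0.31, unadjusted p = 0.019, adjusted p = 0.9999, edgeR), and F1-622 was far above the other mice. Without F1-622 the log2 fold change was 0.55 (unadjusted p = 0.024, edgeR). Without P3-904 the unadjusted p was 0.058 in edgeR.

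*Vegfa*, the endothelial growth factor, ran from 62.0 through a median of 68.1 to 81.2 CPM with FTY720. Placebo mice had 57 CPM in P1-623, 101 in P3-612, 89.5 in P3-904 and 102 in P3-907. The log2 fold change was -0.35 (SE 0.15, unadjusted p = 0.043, adjusted p = 0.9999, edgeR), with 3 placebo mice above every FTY720 mouse and the 1 placebo mouse of digit 1 below every one. In edgeR the unadjusted p rose above 0.05 when any of 8 mice was left out. With the digit as a covariate the log2 fold change was -0.23 (edgeR unadjusted p = 0.078).

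The ligands were scarce throughout. *Osm*, which encodes the ligand of *Osmr*, had 0 to 3 counts per mouse, as did *Il6*. *Il11* had 2 to 15, *Lif* 7 to 20 and *Clcf1*, a second ligand of the CNTF receptor, 16 to 45 counts. *Ctf1* (cardiotrophin 1) had 30 to 54 counts. Of the 11 ligand genes 6 were below the count filter, and a 0 count again allows up to 3 counts in that mouse. The 3 table entries named *Il11ra2* are near-identical copies and were not read.

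Between the digits, 12 of the 58 pathway genes passed an adjusted p of 0.05 in edgeR, 7 higher and 5 lower in digit 3, beside 28.4% of all genes. Among the STATs, *Stat2*, which carries interferon signals, rose by 0.82 (SE 0.10) and *Stat5b* by 0.42 (SE 0.12) on the log2 scale. Of the feedback genes, *Socs4* had a log2 fold change of 0.56 (SE 0.10) and the STAT phosphatase gene *Ptpn2* of 0.44 (SE 0.10), while *Ptpn1*, which encodes a related phosphatase, was at -0.37 (SE 0.11). Of the STAT3 targets, the early response gene *Junb* was at -1.81 (SE 0.26), *Cebpb* and *Cebpd*, for transcription factors of the acute-phase response, at -1.04 (SE 0.20) and -1.0 (SE 0.26), and *Hif1a*, the hypoxia factor, at 0.56 (SE 0.09). Of these calls, *Cebpd* was lost without P1-623 (adjusted p = 0.084, edgeR), *Ptpn1* without F1-918, F3-609 or F3-612 (0.052 to 0.063) and *Stat5b* without F3-609 or P1-623 (0.055 and 0.15).

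These digit differences lay beside a difference in tissue content, since cerebellum marker sums were 1310 to 1392 CPM in digit 3 and 150 to 184 CPM in digit 1 mice. The part of tissue content in them was not tested. With GC and gene length trends taken out, *Hif1a*, *Socs4* and *Ptpn2* no longer passed, whereas *Stat2*, *Junb*, *Cebpb*, *Cebpd*, *Ptpn1* and *Stat5b* did.

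The genes most like *Osmr* across the 10 mice were sought among 14051 protein-coding genes of at least 1 CPM, on log2 CPM centred within each digit. *Ube2g1* (Pearson r = 0.969), *Capn7* (0.968), *Foxp2* (0.968), *Golph3* (0.968) and *Lsm14a* (0.963) came first. Their own log2 fold changes with FTY720 were small, between 0.09 and 0.26, beside 0.75 for *Osmr*. Of the members, *Jak2* (0.698) and *Lifr* (0.591) were most like *Osmr* and *Cntfr* (-0.781) was most unlike it, while *Il6st*, its partner, was at 0.039. These r values come from the same 10 libraries, share their depth and treatment, and are a description. For *Socs3* the first genes were *Zbtb12* (0.972), *Nomo1* (0.922), *Unc45a* (0.911), *Fam129b* (0.905) and *Dhx30* (0.897), and *Stat3* was at 0.038.

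The members' promoters were searched for TTCNNNGAA, the palindromic site that STAT3 binds, which reads the same on both strands. RefSeq windows of 250 bases before the start (GRCm38.p6) were held for all 10 members, 16 windows in all. The one match was in *Socs3*, a STAT3 target gene, 154 bases before the RefSeq start. Genome-wide, 7.02% of 32851 windows hold one, and 1 match in 16 windows is near that share. It is shown with 10 bases on each side, at chr11:117969502-117969530 on the minus strand, the match in capitals:

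Socs3: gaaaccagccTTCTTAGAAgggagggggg

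The *Osmr* window, at chr15:6874314-6874563 on the minus strand, and the others did not hold these letters. The *Socs3* and *Osmr* windows, the 2 *Lifr* windows and the 6 *Cntfr* windows lie inside the deposited gene spans. Those spans start further upstream than the RefSeq starts, so sequence before the deposited start of these genes was not searched. In GENCODE the *Osmr* window lies within an untranslated first exon, so it may not be the promoter. A match is a run of letters and not a bound site, and no binding was measured in these mice.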

How the data were processed

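Brain RNA of 10 mice was sequenced, and the authors deposited whole-number counts per gene and FPKM values. Their notes name CASAVA 1.8, fastp, HISAT2 2.0.5, featureCounts 1.5.0-p3, DESeq2 1.20.0 and GRCm38; the annotation release and strand setting are not given in the sources used here, so overlapping genes are uncertain. Columns were matched to mice by name. From the counts, genes kept by filterByExpr were scaled by TMM and fitted with edgeR 4.0.16 (quasi-likelihood, R 4.3.3), with Benjamini-Hochberg adjustment over all 17665 genes. CPM uses TMM library sizes, and a standard error was had by dividing a log2 fold change by the root of its F statistic. Alternatives were DESeq2 1.42.0, limma 3.58.1 on log2(FPKM + 1) and log2(FPKM + 0.1), other scalings, no filter, covariates, single digits, each mouse left out, and, chosen after seeing the data, spline trends on gene length and GC content removed. Scripts were tested on simulated data. The members and gene lists were chosen with earlier results of these data known.

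Named genes were the members, pathway genes with an unadjusted p under 0.05 for treatment, the 10 with the smallest p among those passing between digits, the 5 genes most like *Osmr* and *Socs3*, *Slc20a2* and *Gabra6*; marker genes were read as sums and counts, except a few named after their values were seen. Ligands of the pathway list are named for their counts, outside that rule. One gene that this rule names is not reported here. The replicates were separate mice. Depth was 14772745 to 18303981 counts per mouse, at which counting error matters for *Osmr*, *Socs3*, *Il6ra* and *Cntf* more than for the others. Supplementary tables of comparisons were not used.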

Additional observations from a re-analysis of the deposited data

Results flagged for a closer look

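The FTY720 difference of *Vegfa* ran in opposite directions in the 2 kinds of library. In digit 3 mice every FTY720 mouse (67.4 to 81.2 CPM) was below every placebo mouse (89.5 to 102 CPM), and in digit 1 mice every FTY720 mouse (62.0 to 70.3 CPM) was above the 1 placebo mouse (57 CPM). The difference between the digits, digit 3 minus digit 1, was -0.61 on the log2 scale (SE 0.21). It is given with no test, since *Vegfa* was flagged for this difference and the value rests on that single placebo mouse. Among single genes tested, 12.9% did not overlap in digit 3 mice, 3 against 3.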

How the results depend on the processing

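The log2 fold change of *Osmr* between FTY720 and placebo stayed above 0 in all 22 alternatives, from 0.23 with limma on log2(FPKM + 1), a scale that understates low genes, to 0.96 in digit 1 mice alone. Dropping single mice gave 0.68 to 0.81. The number of members higher with FTY720 stayed at 6 or 7, and *Jak1* was at 0.18 in digit 1 mice alone. The 1 member called between digits became 0 with limma on either FPKM scale, with no covariate, with the leading digit of the mouse number added, in FTY720 mice alone and with GC and length trends removed, and 0 to 1 with each mouse left out. The 2 pathway genes past an unadjusted p of 0.05 for treatment became 4 with no count filter or with the length trend removed, 8 of 58 with the digit as a covariate (12.8% of all genes passed there), 5 in digit 3 mice alone (7.27% of all genes), 1 with limma on either FPKM scale, with the leading digit as a covariate or in digit 1 mice alone, and 1 to 3 with each mouse left out. None passed after adjustment in any of these. *Vegfa* reversed to 0.19 in digit 1 mice alone. The cause of these changes was not tested. No paired analysis was possible because the groups share 1 mouse number, 612 (F3-612 and P3-612), whose meaning is not given. The interaction could not be fitted without P1-623, the 1 placebo mouse with the digit 1. Depth limits *Cntf*, *Osm* and *Il6*.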
